A study of Mus musculus with 3 samples.

Results

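The cells described here are Moxd1-positive mesenchymal cells of the mouse mandibular molar at postnatal day 6. They came from a droplet single-cell RNA library of Cxcl12-GFP/+ mice, in which each RNA molecule carries a unique molecular identifier (UMI). A cell belonged to the set if it had at least 500 detected genes, at most 15% of its UMIs from mitochondrial genes, at least 2 UMIs of Moxd1, no UMI of Sfrp4, fewer than 2 UMIs of Mmp13, and no UMI of the immune, endothelial and epithelial markers Ptprc, Pecam1 and Epcam. These conditions picked 760 of the 7517 barcodes that passed the gene and mitochondrial limits, or 10.1% (95% Clopper-Pearson interval 9.44 to 10.8%), out of 14305 such barcodes in the 3 libraries of the series. The cells were chosen by the UMI counts of those 6 genes, so levels of Moxd1, Sfrp4 and Mmp13 below only describe the choice.

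The 3 libraries were made from dissociated pulp and periodontium of mandibular molars, with fluorescent cells collected by flow sorting. The Cxcl12-GFP P6 library holds cells sorted for GFP from the Cxcl12-GFP/+ genotype, in which the reporter marks cells by Cxcl12 activity. The Cxcl12-creER P6 library holds tdTomato-positive cells of the genotype Cxcl12-creER; R26R(tdTomato/+), also at postnatal day 6. The Col1a1-GFP Cxcl12-creER P25 library holds cells positive for GFP, tdTomato or both from Col1a1-GFP; Cxcl12-creER; R26R(tdTomato/+) mice at postnatal day 25. Each group is 1 library, the labels do not say how many animals went into it, and no statement here rests on replicates. Cells outside the sort windows are missing from all 3 libraries.

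At this age the molar is still unerupted and its root is forming. The dental papilla inside the tooth becomes the pulp and its odontoblasts, while the dental follicle, a loose sac around the tooth, gives rise to the periodontal ligament, the cementum of the root and part of the alveolar bone. Moxd1 encodes a copper-dependent monooxygenase related to dopamine beta-hydroxylase. Bmp3 is an unusual bone morphogenetic protein that counteracts bone-inducing BMPs, Cxcl14 is a chemokine, and Dkk2 is a secreted modulator of Wnt signalling.

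Moxd1 (ENSMUSG00000020000) lies on the forward strand of chromosome 10 at 24223517 to 24302790 (GRCm38, the mm10 assembly). Bmp3 (ENSMUSG00000029335) lies on chromosome 5 at 98854415 to 98884396, forward strand. Cxcl14 (ENSMUSG00000021508) lies on chromosome 13 at 56288643 to 56296551, reverse strand. Dkk2 (ENSMUSG00000028031) lies on chromosome 3 at 132085292 to 132180304, forward strand. All are protein-coding genes. Because Moxd1 alone provides the positive criterion, its RefSeq promoter window is shown, 250 bases before to 50 bases after the gene's start (GRCm38.p6, chr10:24223267-24223566, forward strand). The capitals mark the 1 match to the E-box CANNTG, at position 173 counted from the 5′ end of the window.

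Moxd1 promoter: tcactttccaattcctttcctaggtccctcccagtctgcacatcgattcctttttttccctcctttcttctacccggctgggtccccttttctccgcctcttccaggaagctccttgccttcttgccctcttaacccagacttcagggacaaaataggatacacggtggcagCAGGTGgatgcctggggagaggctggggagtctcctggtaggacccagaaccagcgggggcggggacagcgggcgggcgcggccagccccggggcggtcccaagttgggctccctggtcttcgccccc

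CANNTG reads the same pattern on both strands and was present in 72.3% of the 32851 mouse promoter windows of this length. ACAAAG, the core bound by TCF and LEF factors, was searched for on both strands. It had 0 matches in the Moxd1 window and was present in 18.7% of all windows. The data hold no measurement of binding at this promoter.

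Moxd1-positive cells were compared inside their own library with 4 sets. The first set was all other mesenchymal cells, 6289 barcodes with no UMI of Ptprc, Pecam1 or Epcam. The others were subsets of it, each with at least 2 UMIs of the gene that names it. They were 325 Tnmd-gated cells (Tnmd is a ligament and tendon gene), 251 Sfrp4-gated cells and 841 Mmp13-gated cells. Tnmd-gated cells also had under 2 UMIs of Moxd1 and no UMI of Sfrp4. Both Tnmd-gated and Sfrp4-gated cells had under 2 UMIs of Mmp13, while Mmp13-gated cells had no limit on Sfrp4. Sfrp4-gated and Mmp13-gated cells had no limit on Moxd1, which was at 88.3 and 32.6 CPM in them. In Tnmd-gated cells Moxd1 was at 36.7 CPM, with 1 UMI in 38.8% of the cells. Levels are UMIs summed over the cells of a set, scaled to the total UMIs of that set (CPM), and a fold is the ratio of CPM with an exact 95% interval. All intervals cover counting error only. A gene was called where the ratio, after adding 1 CPM to both sides, reached 2-fold, among genes with at least 20 CPM in either set. Median depth was 9787.5 UMIs in Moxd1-positive cells, 9932 in Tnmd-gated cells, 7683 in Sfrp4-gated cells, 10559 in Mmp13-gated cells and 8132 in all other mesenchymal cells. A minimum of 2 UMIs admits deep cells more easily than shallow ones, and the part of depth in the results was not tested beyond the alternatives given at the end.

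Bmp3, Cxcl14 and Dkk2 were all higher in Moxd1-positive cells than in every other mesenchymal set. Bmp3 was at 1155 CPM in Moxd1-positive cells, against 490 in Tnmd-gated, 314 in Sfrp4-gated, 136 in Mmp13-gated and 106 in all other mesenchymal cells, which is 10.9-fold over the last (10.51 to 11.21). Cxcl14 was at 1157 CPM in Moxd1-positive cells, against 456 in Tnmd-gated, 189 in Sfrp4-gated, 131 in Mmp13-gated and 119 in all other mesenchymal cells (9.69-fold, 9.39 to 10.0). Dkk2 was at 166 CPM in Moxd1-positive cells, against 65.2 in Tnmd-gated, 30.2 in Sfrp4-gated, 16.7 in Mmp13-gated and 17.4 in all other mesenchymal cells (9.54-fold, 8.78 to 10.4). For each of these genes the Tnmd-gated cells were the closest of the 4 sets. When gate and counts were both taken from cells thinned to 3000 UMIs, the log2 ratios over Tnmd-gated cells were 0.67 for Bmp3, 0.99 for Cxcl14 and 0.78 for Dkk2, under 2-fold. The genes were named as markers of these cells from earlier results on the same library, so their levels are a description.

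**Figure D1:**
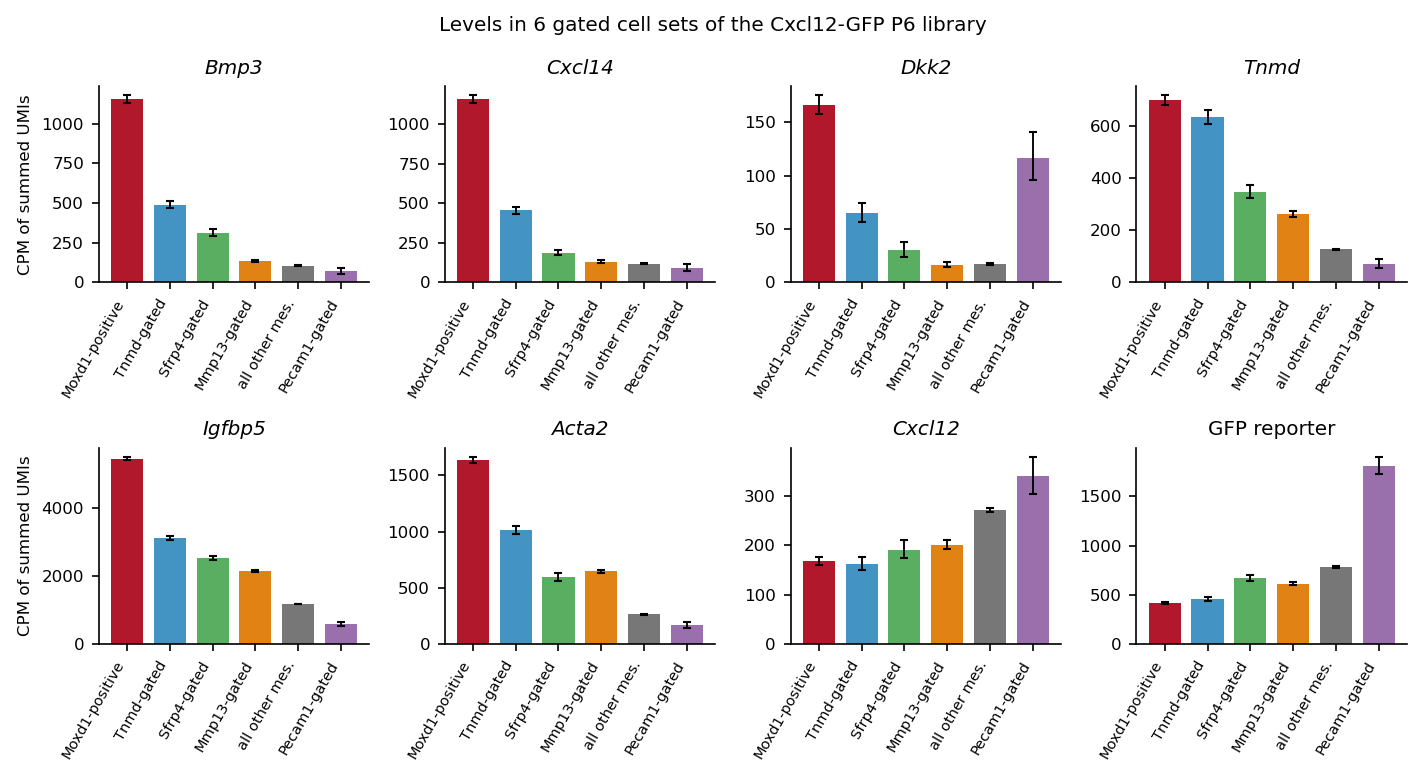
CPM of summed UMIs (vertical axes, from 0) for 7 genes and the GFP reporter in 6 gated cell sets of the Cxcl12-GFP P6 library, with exact 95% Poisson intervals of counting error. Bmp3 reaches 1155 CPM in Moxd1-positive cells and 490 CPM in Tnmd-gated cells, while Cxcl12 is at 168 CPM in Moxd1-positive cells and 271 CPM in all other mesenchymal cells.

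Single cells showed the same markers together. Among the 760 cells, Moxd1 ranged from 2 to 31 UMIs with a median of 5. Bmp3 had a median of 12 UMIs per cell (quartiles 8 and 16, highest 39) and was at 0 in 32 cells. Cxcl14 had a median of 9 UMIs (quartiles 4 and 17, highest 78) and was at 0 in 48 cells, and Dkk2, the sparsest, had a median of 1 and was at 0 in 248 cells. To compare shares of cells at equal depth, every cell was thinned to 3000 UMIs, which left out 3 Moxd1-positive, 94 other mesenchymal and 2 endothelial (Pecam1-gated) cells. After thinning, Bmp3 was detected in 91.3% of Moxd1-positive cells, 14.9% of other mesenchymal cells and 7.53% of 93 endothelial cells, whose median depth before thinning was 8220 UMIs. Unthinned, the Bmp3 shares were 95.8% of Moxd1-positive cells and 26.7% of other mesenchymal cells. Cxcl14 was detected in 81.6% of thinned Moxd1-positive cells, 15.96% of other mesenchymal and 7.53% of endothelial cells. Dkk2 was detected in 35.9% of thinned Moxd1-positive cells and 4.05% of other mesenchymal cells, but also in 24.7% of endothelial cells (16.4 to 34.8%), so endothelial cells give no background for it. At this depth 31.2% of Moxd1-positive cells had all 3 of Bmp3, Cxcl14 and Dkk2, against 1.21% of other mesenchymal cells. None of the 3 was found in 4.10% of Moxd1-positive cells, against 72.7% of other mesenchymal cells.

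Summed levels of Bmp3, Cxcl14 and Tnmd rose with the number of Moxd1 UMIs on both sides of the threshold. Among cells that met every other condition, Bmp3 was at 48.9 CPM in the 4440 cells without a Moxd1 UMI, 280 CPM in the 422 cells with 1 UMI, 862 CPM in the 133 cells with 2, 1008 CPM in the 215 cells with 3 to 4 and 1316 CPM in the 412 cells with 5 or more. Cxcl14 followed the same order with 80.9, 308, 734, 1049 and 1336 CPM. Tnmd stood at 45.5, 254, 568, 668 and 756 CPM over the same classes. The cells with 1 Moxd1 UMI, just outside the threshold, were thus intermediate for all 3 genes. In the other direction, Col9a1, a cartilage-type collagen also transcribed in dental papilla, was at 224, 120, 12.6, 32.7 and 28.6 CPM over the same classes, lowest in the class with 2 UMIs and not in steady order. Cells with a single Sfrp4 UMI that otherwise met the conditions numbered 59 and had 940 CPM of Bmp3, close to the members. The 121 members with 1 Mmp13 UMI had 1083 CPM of Bmp3, and the 11 cells excluded for exactly 2 Mmp13 UMIs had 735 CPM (606 to 882).

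**Figure D2:**
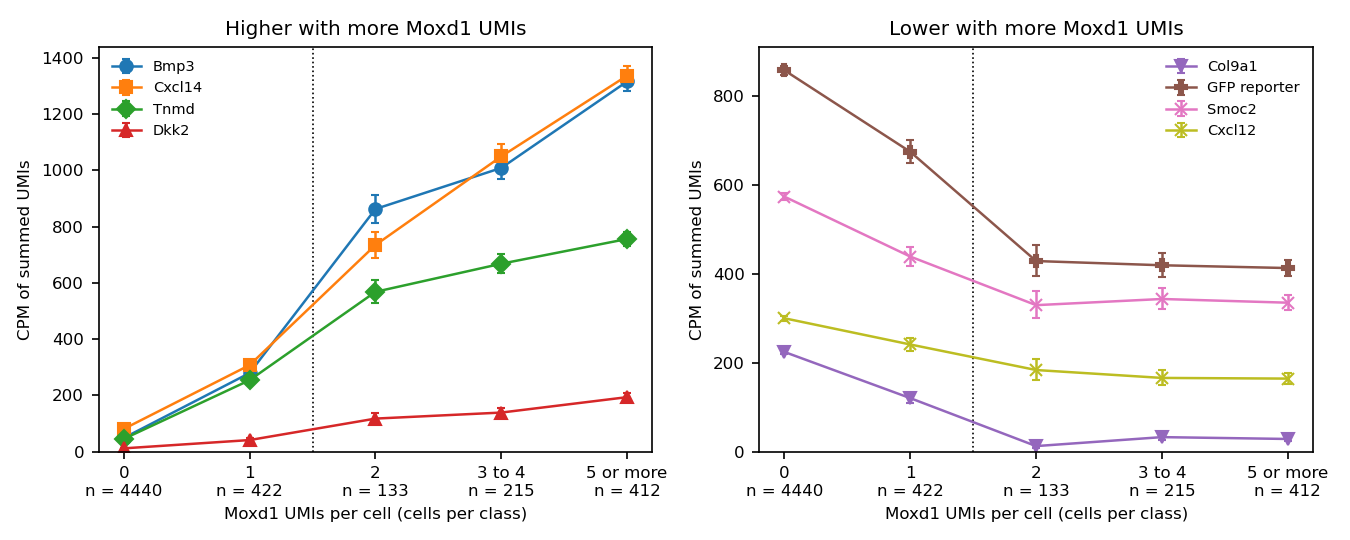
CPM of summed UMIs against the number of Moxd1 UMIs per cell (5 classes, with cell numbers under the axis), with exact 95% Poisson intervals; the dotted line is the threshold of 2. Bmp3, Cxcl14, Tnmd and Dkk2 are higher in each class with more Moxd1 UMIs, and the GFP reporter is at 428 CPM in the class with 2 UMIs and 674 CPM in the class with 1.

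The dental follicle markers that could be tested did not, as a list, set these cells apart, and ligament genes were as prominent. Of 6 follicle genes tested against all other mesenchymal cells, 2 were called higher (Bmp3 and Igfbp5) and 1 lower (Fbln7). Of all 6681 genes tested, 4.95% were called higher and 4.86% lower, or 9.82% in either direction. Bmp3 is a marker named from this same library, so its call repeats that choice. Pthlh, the parathyroid hormone-like factor of the follicle, was at 102 CPM in Moxd1-positive cells and 112 in all other mesenchymal cells, and 354 CPM in Sfrp4-gated cells. Wif1, a secreted Wnt inhibitor, was at 585 CPM in Moxd1-positive cells, against 1007 in all other mesenchymal and 3571 in Sfrp4-gated cells. Sfrp4 and Mmp13 are also on the follicle list but were not counted, because the rule limits them. The rule also leaves out cells with Sfrp4, and Sfrp4-gated cells had the most Pthlh and Wif1 of these sets. The part of the rule in the follicle list result was not tested. Of 6 ligament genes tested, 2 were higher and 1 lower, the growth factor Ptn at 696 CPM in Moxd1-positive cells and 1638 in all others. Tnmd was at 700 CPM in Moxd1-positive cells and 127 in all other mesenchymal cells (5.51-fold), and Mkx, a transcription factor of tendon, was at 125 CPM in Moxd1-positive cells and 55.2 in all others (2.26-fold). Postn, a matrix protein abundant in the ligament, was between the thresholds at 684 CPM in Moxd1-positive cells and 524 in all other mesenchymal cells. The median log2 ratio was 0.11 for the follicle list and 0.62 for the ligament list, against -0.06 over all genes tested. Since at least 2 Tnmd UMIs were present in 624 of the 760 cells (82.1%) and Scx had none in any, the cells are called Moxd1-positive below and not by a tissue name.

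Papilla and cartilage-type genes were low. Of 8 papilla and pulp genes tested, 0 were called higher and 5 lower, with a median log2 ratio of -1.79. Over all 6681 genes tested, 4.95% were called higher and 4.86% lower. Cldn10, a tight-junction gene, was at 27.2 CPM in Moxd1-positive cells and 152 in all other mesenchymal cells. Sox9 was at 37.3 CPM in Moxd1-positive cells and 192 in all others, and Tac1, which encodes the substance P precursor, was at 7.87 and 50.5 CPM in the same order. Of 4 chondrocyte genes tested, 3 were lower, among them Col9a2 at 230 CPM in Moxd1-positive cells and 897 in all other mesenchymal cells. Against the Tnmd-gated cells 1 of 8 papilla genes, Tac1, was called lower, and the list median was -0.52. Of all 6482 genes tested in that comparison, 0.694% were called lower.

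Markers of other cell types were mostly near 0. The 8 endothelial genes summed to 15.98 CPM in Moxd1-positive cells and 24.8 CPM in all other mesenchymal cells. None of them reached 20 CPM in either set. The 9 immune genes summed to 47.7 CPM in Moxd1-positive cells and 35.5 in all other mesenchymal cells, most of it Lyz2 at 41.9 CPM, while Csf1r and Cd52 were at 0 in Moxd1-positive cells. The enamel gene Amelx, made by ameloblasts, was at 49.5 CPM in Moxd1-positive cells and 311 in all other mesenchymal cells, and its part as free RNA was not tested. Sox10, a gene of Schwann cells and other glia, was at 3.27 CPM in Moxd1-positive cells and 0.841 in all other mesenchymal cells. Haemoglobin Hba-a1 had 821 UMIs in the set, of which 768 were in 1 cell.

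Aplnr and Gatm led the genes farthest above all other mesenchymal cells. Aplnr, the apelin receptor, was at 55.9 CPM in Moxd1-positive cells and 2.09 CPM in all other mesenchymal cells (26.7-fold, 21.8 to 33.0). It was uneven among the members: 577 of the 760 cells had no UMI and the highest cell had 15. Endothelial cells also had it, at 97.3 CPM. Gatm, the first enzyme of creatine synthesis, was at 61.2 CPM in Moxd1-positive cells and 3.54 in all others (17.3-fold, 14.6 to 20.5). Slco2a1, a prostaglandin transporter, was 13.7-fold higher (11.6 to 16.1), and Apbb1ip, an adaptor of integrin activation, 12.96-fold higher (11.4 to 14.7). Nt5e, the ectonucleotidase also called CD73, was 8.36-fold higher. Lepr, the leptin receptor, was at 66.8 CPM in Moxd1-positive cells and 9.03 in all others (7.40-fold, 6.54 to 8.36). Mrgprf, Cpa6, Cyp1b1, Lrrc15 and Mustn1 were between 6.96-fold and 12.9-fold higher, and Notum and Acta2, also among the 16 farthest above, are given with their groups below. After thinning, Gatm was found in 15.1% of Moxd1-positive cells, 0.888% of other mesenchymal cells and 1.08% of endothelial cells.

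Gpha2 and Sfrp2 led the genes farthest below. Gpha2, a glycoprotein hormone subunit, was at 6.29 CPM in Moxd1-positive cells and 61.7 in all other mesenchymal cells (ratio 0.102, 0.0760 to 0.134). Sfrp2, a secreted Frizzled-related protein, was at 42.0 CPM in Moxd1-positive cells and 328 in all others (ratio 0.128, 0.115 to 0.143). Plppr1, Dlx6os1, Amelx, Col9a1, Lect1, Hepacam, Angpt4 and Tac1 had ratios between 0.149 and 0.169. Amelx was higher in Moxd1-positive cells than in Sfrp4-gated and Tnmd-gated cells (log2 ratios of 0.62 and 0.50), unlike the other genes of this group with a value there.

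**Figure D3:**
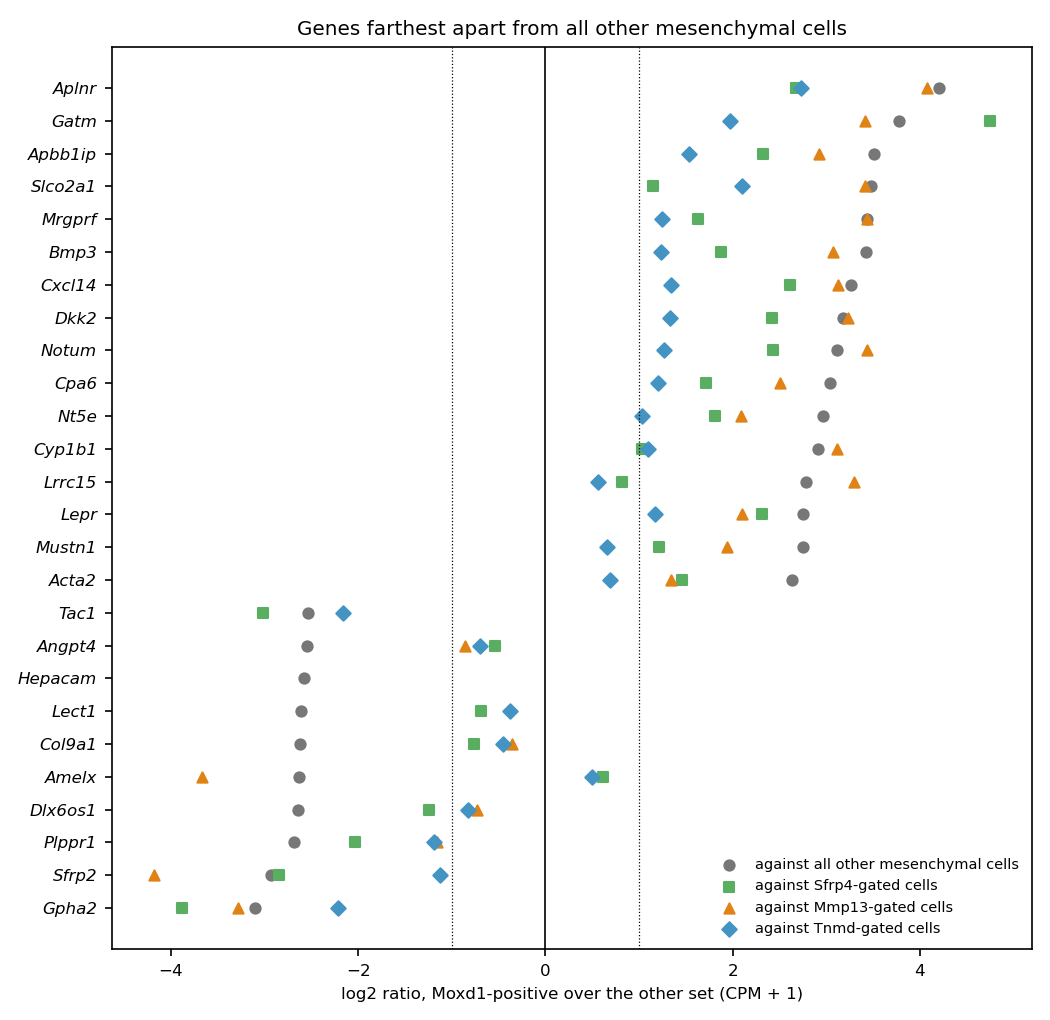
Log2 ratio of CPM, with 1 CPM added, of Moxd1-positive cells over 4 other cell sets (horizontal axis) for the 16 genes farthest above and the 10 farthest below all other mesenchymal cells; dotted lines mark 2-fold and genes under 20 CPM in both sets have no point. Every one of the 16 upper genes is above 0 against all 4 sets, and Aplnr is at 4.202 against all other mesenchymal cells and 2.73 against Tnmd-gated cells.

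Secreted Wnt antagonists were split. Of 8 tested, 4 were higher, 2 lower and 2 between the thresholds, with a median log2 ratio of 0.94. Among all 6681 genes tested, 4.95% were called higher and 4.86% lower. Dkk2, counted among the higher ones, is a marker named from this library, so its call repeats that choice. Besides Dkk2, Notum, an enzyme that inactivates Wnt proteins, was at 84.6 CPM in Moxd1-positive cells and 8.85 in all other mesenchymal cells (9.55-fold, 8.50 to 10.7). Sfrp1 was at 737 CPM in Moxd1-positive cells and 258 in all others (2.86-fold), and Dkk3 was 2.31-fold higher. Sfrp2 and Frzb were the 2 lower ones. Among ligands and receptors, 3 of 12 were higher and 2 lower, including Wnt11 (3.80-fold), the R-spondin Rspo1 (2.98-fold) and Wnt5a, at 266 CPM in Moxd1-positive cells and 118 in all others (2.25-fold). Lgr5, an R-spondin receptor, was below the level tested but stood at 16.7 CPM (14.03 to 19.73) in Moxd1-positive cells and 1.16 CPM in all other mesenchymal cells. Among 7 feedback genes of the pathway, Nkd2 and Nkd1 were higher (5.79-fold and 2.22-fold), Tcf7l2 was at a ratio of 0.494 and Ccnd1 at 0.356.

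BMP genes other than Bmp3 were mostly lower. Of 19 tested, 2 were higher (Bmp3 and Gdf10) and 8 lower, with a median log2 ratio of -0.77. The shares over all 6681 genes tested were 4.95% higher and 4.86% lower. Bmp3 is a marker named from this library, so its call repeats that choice. The ligand Bmp2 was at 73.7 CPM in Moxd1-positive cells and 425 in all other mesenchymal cells (ratio 0.173). Msx2, a transcription factor induced by BMPs, was at 66.0 CPM in Moxd1-positive cells and 380 in all others (ratio 0.174), and Id1, a direct target, at 168 and 745 CPM in the same order (ratio 0.225). Bambi, Id4, Smad6, Bmp7 and Id2 had ratios between 0.270 and 0.370. Against Tnmd-gated cells 1 of 19 was lower, Id1, at 168 CPM in Moxd1-positive cells and 341 in Tnmd-gated cells. Bmp3 was called higher there, with a log2 ratio of 1.24. Of the 6482 genes tested in that comparison, 0.725% were called higher and 0.694% lower.

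Hedgehog, IGF and vascular signals included several genes higher than in all other mesenchymal cells. Against Tnmd-gated cells few were called, as among all genes. Hhip, which binds hedgehog ligands and is induced by them, was at 253 CPM in Moxd1-positive cells and 59.7 in all other mesenchymal cells (4.24-fold). Of 9 hedgehog genes tested, Hhip, the co-receptor Boc and the transcription factor Foxf1 were higher and 0 were lower, while the targets Gli1 and Ptch1 had ratios of 1.29 and 1.41. Igfbp5, an IGF-binding protein, was at 5434 CPM in Moxd1-positive cells and 1176 in all others (4.62-fold). Igf1 was at 1439 CPM in Moxd1-positive cells and 416 in all other mesenchymal cells (3.46-fold), and its receptor Igf1r was close to even at a ratio of 1.13. Of 11 IGF genes tested, 3 were higher and 1 lower. Of 12 vascular and PDGF genes tested, 3 were higher and 1 lower. In this comparison 4.95% of all 6681 genes tested were called higher and 4.86% lower. Pgf, placental growth factor, was at 283 CPM in Moxd1-positive cells and 46.7 in all others (6.07-fold), and Vegfc, a lymphatic growth factor, was 5.23-fold higher. Pdgfc was 3.07-fold higher and Pdgfd had a ratio of 0.434. Against Tnmd-gated cells 0 of 9 hedgehog genes and 0 of 12 vascular and PDGF genes were called in either direction, and 1 of 11 IGF genes was higher and 1 lower. Of all 6482 genes tested there, 0.725% were called higher and 0.694% lower, so a count of 0 does not set a list this short apart. There Igf1 was at 1439 CPM in Moxd1-positive cells and 1120 in Tnmd-gated cells, Pgf at 283 and 203 CPM, and Hhip at 253 and 195 CPM in the same order.

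Notch and FGF genes were lower where they passed a threshold. Of 6 Notch genes, 4 were lower and 0 higher; the target Hey1 was at 45.4 CPM in Moxd1-positive cells and 150 in all other mesenchymal cells, and Notch2 had a ratio of 0.497. Of 5 FGF genes, 2 were lower, among them the receptor Fgfr3 at 31.8 CPM in Moxd1-positive cells and 129 in all others. Of 21 neuronal guidance and neurotrophin genes, 5 were higher and 2 lower. For these lists the background was 4.95% of all 6681 genes tested called higher and 4.86% lower. Ngfr, the low-affinity neurotrophin receptor, was at 57.1 CPM in Moxd1-positive cells and 14.04 in all others (4.07-fold), Sema3a was 3.66-fold higher and Ntn1 3.46-fold. The chemokine receptor Cxcr4 was at 22.6 CPM in Moxd1-positive cells and 4.83 in all other mesenchymal cells (4.69-fold).

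**Figure D4:**
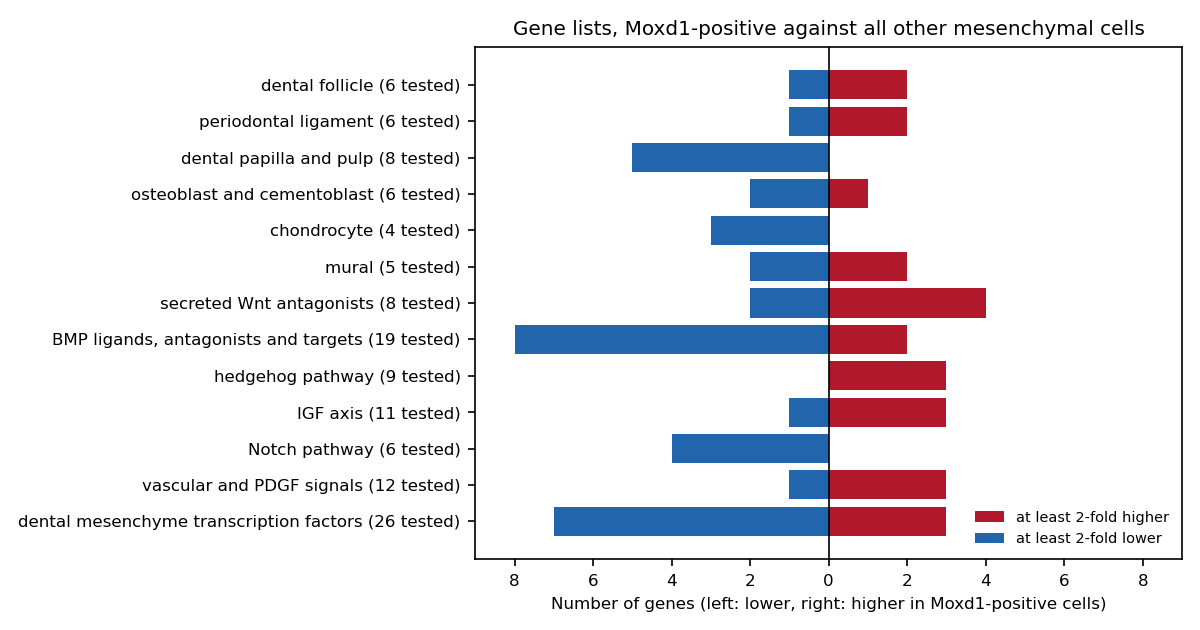
Number of genes (horizontal axis) of 13 gene lists that were at least 2-fold higher (right) or lower (left) in Moxd1-positive cells than in all other mesenchymal cells, with the number tested in brackets. Of 19 BMP genes 8 are lower and 2 higher, and of 8 secreted Wnt antagonists 4 are higher and 2 lower. Of all 6681 genes tested, 4.95% are higher and 4.86% lower.

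Contractile genes were higher than in all other mesenchymal cells, by less against Tnmd-gated cells. Acta2, smooth muscle actin, was at 1638 CPM in Moxd1-positive cells and 263 in all other mesenchymal cells (6.22-fold, 6.08 to 6.37), with a median of 10 UMIs per cell, 94 cells at 0 and a highest cell of 181. Tagln was at 810 CPM in Moxd1-positive cells and 153 in all others. Myh11, a smooth muscle myosin, was 10.9-fold higher at 25.8 CPM in Moxd1-positive cells and 2.36 in all others. Pericyte genes of the same list went the other way in summed level. Rgs5 was at 3.99 CPM in Moxd1-positive cells and 33.5 in all others, and Kcnj8 at 54.2 and 136 CPM in the same order. The share of cells with an Rgs5 UMI was nearly the same, 3.95% of Moxd1-positive cells and 4.28% of all others, unthinned. A cluster of 62 cells led by Rgs5 held 0 Moxd1-positive cells. Against Tnmd-gated cells 0 of 5 genes of this mural list were called higher and 1 lower. Of all 6482 genes tested in that comparison, 0.725% were called higher and 0.694% lower. There Acta2 was at 1638 CPM in Moxd1-positive cells and 1014 in Tnmd-gated cells, and Tagln at 810 and 575 CPM in the same order.

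Of 17 genes of fibrillar collagens and their processing, 2 were higher and 2 lower, with a median log2 ratio of 0.39. Over all 6681 genes tested against all other mesenchymal cells, 4.95% were called higher and 4.86% lower. Col1a1 was at 7733 CPM in Moxd1-positive cells and 5386 in all other mesenchymal cells, a ratio of 1.44, and Col3a1 had a ratio of 0.943. Lox, which cross-links collagen, was at 173 CPM in Moxd1-positive cells and 50.1 in all others (3.45-fold), and Plod2, a collagen lysine hydroxylase, was 2.90-fold higher. The lower ones were Loxl3, a relative of Lox, and P4ha2, a collagen prolyl hydroxylase subunit, with log2 ratios of -1.16 and -1.42. Against Tnmd-gated cells 0 of 16 were called in either direction, where 1.42% of all 6482 genes tested were called. Basement membrane collagens Col4a1 and Col4a2 were 3.11-fold and 2.54-fold higher. Col9a3 and the proteoglycan Fmod were lower, with ratios of 0.172 and 0.187, and tenascin C, Tnc, was at 123 CPM in Moxd1-positive cells and 441 in all other mesenchymal cells.

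Transcription factors of the dental mesenchyme were divided. Of 26 tested, 3 were higher and 7 lower, with a median log2 ratio of -0.37. Among all 6681 genes tested, 4.95% were called higher and 4.86% lower. The higher ones were Tfap2b (2.82-fold), Twist1 (2.41-fold) and Mkx. Runx2, the master factor of bone formation, was at 132 CPM in Moxd1-positive cells and 65.8 in all others, a ratio of 2.002 just under the threshold once 1 CPM was added. Sp7, which acts after Runx2 in osteoblasts, was at 38.9 CPM in Moxd1-positive cells and 139 in all other mesenchymal cells (ratio 0.280). It was also lower than in Tnmd-gated (87.9 CPM), Sfrp4-gated (114 CPM) and Mmp13-gated cells (107 CPM). Dlx3 and Dlx5 had ratios of 0.232 and 0.297. The bone genes Spp1 and Bglap were at 2.30 and 2.54 CPM in Moxd1-positive cells, against 35.5 and 16.8 CPM in all other mesenchymal cells. Ibsp, bone sialoprotein, was 5.42-fold higher, but 46 cells with at least 5 UMIs held 86.4% of its 867 UMIs and 650 of the 760 cells had none.

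Cxcl12 and its reporter were lower in Moxd1-positive cells than in all other mesenchymal cells as 1 set. Cxcl12, the chemokine whose activity the reporter follows, was at 168 CPM in Moxd1-positive cells and 271 in all other mesenchymal cells (ratio 0.620, 0.586 to 0.655). It was at 162 CPM in Tnmd-gated cells (ratio 1.03, 0.936 to 1.14), 191 in Sfrp4-gated cells and 200.4 in Mmp13-gated cells. GFP was at 417 CPM in Moxd1-positive cells, against 783 in all others (ratio 0.532). GFP was at 458 CPM in Tnmd-gated cells, 612 in Mmp13-gated cells and 670 in Sfrp4-gated cells. All these cells had been sorted for GFP protein, so lower levels than the gate admits are not seen.

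Signs of handling and division were measured in every set. Of 15 immediate early and stress genes, 2 were called higher against all other mesenchymal cells (Zfp36 at 2.07-fold and Dusp1 at 2.01-fold), 13 had ratios above 1, and their summed level was 18968 CPM in Moxd1-positive cells and 13748 in all others; their part in the results was not tested. Cycling cells, with at least 3 UMIs over 5 proliferation genes, made up 7.37% of Moxd1-positive cells and 6.82% of all other mesenchymal cells. The share was 16.3% in Tnmd-gated cells, 11.5% in Mmp13-gated cells and 5.18% in Sfrp4-gated cells. Of 17 cell cycle genes, 0 were called against all other mesenchymal cells, 3 were higher and 0 lower against Sfrp4-gated cells, and 0 were higher and 1 lower against Mmp13-gated cells. Against Tnmd-gated cells 0 of 18 were higher and 1 was lower, and none had a ratio above 1 (median log2 ratio -0.65). Over all genes tested, 9.82% were called in either direction against all other mesenchymal cells. The shares higher and lower were 2.45% and 1.9% against Sfrp4-gated cells and 3.26% and 2.18% against Mmp13-gated cells. Against Tnmd-gated cells they were 0.725% and 0.694%. The list summed to 1343 CPM in Moxd1-positive cells, against 2038 in Tnmd-gated, 1723 in Mmp13-gated and 1046 in Sfrp4-gated cells. With cycling cells left out, the log2 ratios of the 3 genes over Sfrp4-gated cells were 0.29 for Cdk1, 0.29 for Hist1h2ap and 0.31 for Birc5, and that of Mcm5, the gene lower than in Tnmd-gated cells, was -0.98. The median mitochondrial share was 2.66% in Moxd1-positive cells and 3.16% in all others.

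The Tnmd-gated cells were the nearest of the 4 sets by the number of genes called. Against them 47 genes were higher and 45 lower, together 1.42%, compared with 160 and 124 of 6520 against Sfrp4-gated cells (2.45% and 1.9%, together 4.36%), 212 and 142 of 6508 against Mmp13-gated cells (3.26% and 2.18%, together 5.44%), and 331 and 325 against all other mesenchymal cells. With only the members of the largest cluster described below, 84 were higher and 239 lower than in Tnmd-gated cells. The Tnmd gate admitted cells with 1 Moxd1 UMI, and 82.1% of Moxd1-positive cells met its Tnmd minimum. The part of these conditions in the small number of calls was not tested. Of the 26 genes farthest from all other mesenchymal cells, the 16 upper ones all kept a ratio above 1 against Tnmd-gated cells, 13 of them past 2-fold. Aplnr was at 55.9 CPM in Moxd1-positive and 7.57 in Tnmd-gated cells (7.39-fold, 4.98 to 11.4), and Slco2a1, Gatm, Apbb1ip, the sialyltransferase St3gal1 and the adhesion molecule Cadm1 were between 2.86-fold and 4.55-fold higher. Tnmd itself was at 700 CPM in Moxd1-positive cells and 634 in the cells gated on it. On the lower side, Spp1, osteopontin, was at 2.30 CPM in Moxd1-positive cells and 62.3 in Tnmd-gated cells (ratio 0.0369). Thbs4, a tendon thrombospondin, was at 46.1 CPM in Moxd1-positive cells and 175 in Tnmd-gated cells, and Aspn, a ligament proteoglycan, was at 334 and 779 CPM in the same order. Wif1, Plac8, Dlk1, Agt, Cxcl5 and Cthrc1 had ratios between 0.294 and 0.402.

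Against Sfrp4-gated cells, Grp had the lowest ratio of the genes named. Grp, gastrin-releasing peptide, was at 1.69 CPM in Moxd1-positive cells and 111 in Sfrp4-gated cells (ratio 0.0152, 0.00819 to 0.0260). Krt18, Sst (somatostatin), Gpha2, Thbs4, Shisa2, Tac1 and Sfrp2 followed with ratios between 0.0185 and 0.136. Wif1 and Pthlh had ratios of 0.164 and 0.289. Above them, Gatm was at 61.2 CPM in Moxd1-positive cells, while Sfrp4-gated cells had 3 UMIs in all (46.7-fold, 15.9 to 227). Notum, Dkk2, Lepr and Apbb1ip were between 5.26-fold and 5.69-fold higher, and Hhip was at 253 CPM in Moxd1-positive cells and 57.3 in Sfrp4-gated cells. Runx2 was near even at a ratio of 0.963.

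Mmp13-gated cells carried bone matrix genes and a protease that were near 0 in Moxd1-positive cells. Spp1 was at 2.30 CPM in Moxd1-positive cells and 142 in Mmp13-gated cells (ratio 0.0162). Bglap2 and Bglap, which encode osteocalcin, had ratios of 0.0182 and 0.0372, and the protease Mmp9 was at 2.66 CPM in Moxd1-positive cells and 80.6 in Mmp13-gated cells. Sfrp2 was at 42.0 CPM in Moxd1-positive cells and 781 in Mmp13-gated cells, and Aldh1a2, a retinoic acid enzyme, at 3.39 and 68.9 CPM in the same order. The upper side again held Aplnr (23.7-fold), Mrgprf, Slco2a1, Gatm and Notum (12.29-fold to 13.01-fold), then Lrrc15 and Dkk2.

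Most Moxd1-positive cells clustered together, beside small groups elsewhere. When all 7517 barcodes were clustered without the 6 genes of the rule, 574 of the 760 (75.5%) fell into 1 cluster of 873 cells, of which they made up 65.8%. The clusters used the same counts, so the values by cluster are a description. In that cluster 572 of the 574 had a Bmp3 UMI and 524 a Tnmd UMI, and Bmp3 was at 1389 CPM. A further 55 lay in a cluster of 219 cells, 217 of them marked as doublets by a simulated-doublet score, with a median of 16831 UMIs for the members. Those 55 had 824 CPM of Bmp3 together with 139 CPM of Col9a1 and 317 CPM of Bmp2, against 7.36 and 27.3 CPM in the members of the largest cluster. In the whole set 75 of the 760 cells (9.87%) were marked, against 452 of all 7517 (6.01%); marked cells were kept, and results without them are given at the end. A group of 48 lay in the cycling cluster, with 620 CPM of Top2a. Another 35 lay in a cluster led by Lpl, with 1319 CPM of Tnmd and 15894 CPM of Col1a1, against 780 and 7781 CPM in the members of the largest cluster. Aplnr was at 75.1 CPM in the members of the largest cluster and 16.3 CPM in the rest of the members.

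A group of 14 members carried the glial factor Sox10 and few of the markers. They made up 14 of the 37 cells of a cluster led by Fabp7, a fatty acid binding protein. Sox10, a transcription factor of the glial lineage, was at 234 CPM (154 to 340) in these 14 cells, which held all 27 of its UMIs among the 760 members. Their Bmp3 was at 26.0 CPM (5.35 to 75.9), and Tnmd and Acta2 had 1 UMI each, while Moxd1 was at 381 CPM (277 to 511). They are 1.84% of the set, and the conditions on Ptprc, Pecam1 and Epcam do not remove glial cells.

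**Figure D5:**
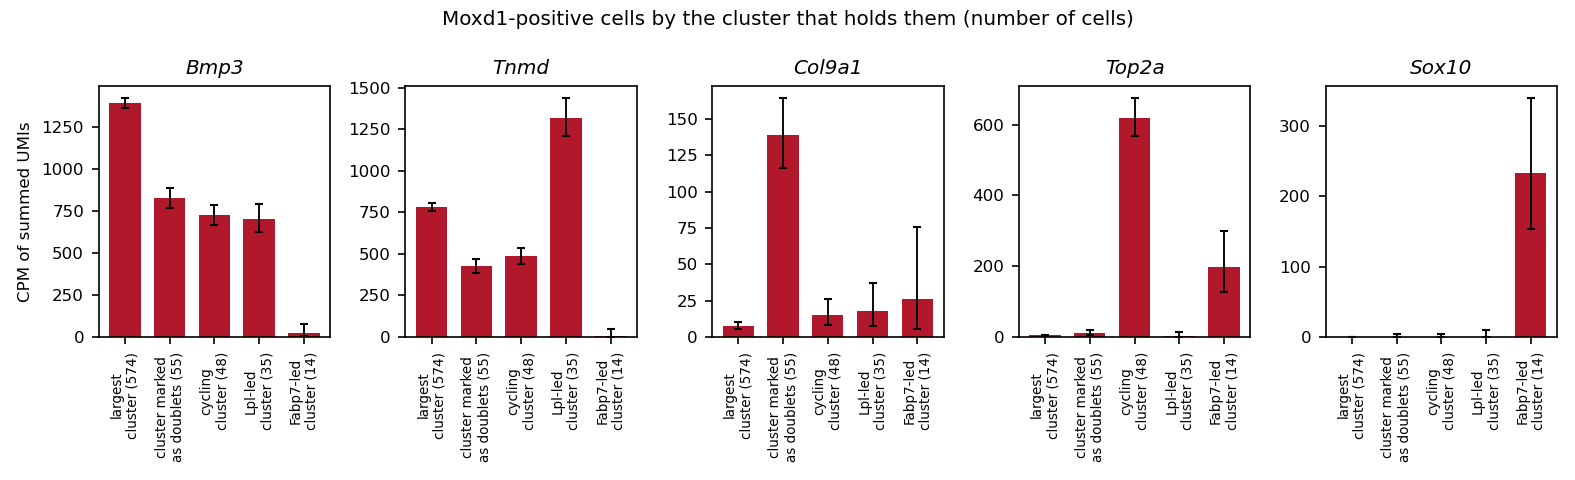
CPM of summed UMIs (vertical axes, from 0) of 5 genes in the Moxd1-positive cells of 5 clusters, with exact 95% Poisson intervals and the number of cells in brackets. Bmp3 is at 1389 CPM in the largest group and 26.0 CPM in the group of 14, where Sox10 is at 234 CPM.

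The other 2 libraries give cells that the choice of genes did not use, but few of them. The same conditions found 31 of 1131 cells in the Cxcl12-creER P6 library (2.74%, 1.87 to 3.87%) and 25 of 5657 in the Col1a1-GFP Cxcl12-creER P25 library (0.442%, 0.286 to 0.652%). In the Cxcl12-creER P6 library the 31 cells had a median of 14480 UMIs, against 1425.5 in its other mesenchymal cells, and the part of this depth gap in the values was not tested. At P25 the medians were 14116 UMIs in the 25 cells and 14857 in the others. Age, reporter, sort and depth all differ between libraries, their parts cannot be told apart, and the shares are set side by side only.

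Within the Cxcl12-creER P6 library Bmp3, Cxcl14 and Dkk2 were also higher in Moxd1-positive cells. Bmp3 was at 989 CPM in the 31 Moxd1-positive cells and 103 CPM in the 1054 other mesenchymal cells (9.58-fold, 8.46 to 10.9). Cxcl14 was at 347 CPM in the 31 cells and 47.0 in the others (7.38-fold), and Dkk2 at 98.0 and 26.0 CPM in the same order (3.77-fold). Of the 16 genes farthest above in the Cxcl12-GFP P6 library, 15 were at least 2-fold higher in the 31 cells. The exception was Acta2, at 309 CPM in the 31 cells and 375 in the others (ratio 0.823, 0.697 to 0.967). Tnmd was also about even there, at 217 CPM in the 31 cells and 234 in the others. Sox10 was at 30.1 CPM (17.2 to 49.0) in the 31 cells and 10.9 in the others. Lect1, 1 of the lower genes, was not among the features of that library. The other 9 lower genes all had ratios below 1, 8 of them past 2-fold. However, the intervals of Gpha2 (0.0479 to 1.57) and Plppr1 (0.499 to 1.40) included 1. The share of all genes past 2-fold was not measured in that library, so these counts of upper and lower genes are a description. Amelx, made by ameloblasts, reached 110340 CPM in the 1054 other mesenchymal cells of that library, against 490 CPM in the 31 cells. That set, defined by no UMI of Ptprc, Pecam1 and Epcam, thus held much ameloblast RNA. The part of this RNA in the ratios of this library was not tested.

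At P25 the pattern was partial. Bmp3 was at 332 CPM in the 25 Moxd1-positive cells and 135 in the 4743 other mesenchymal cells (2.46-fold, 2.05 to 2.94), and Cxcl14 was at 81.1 and 25.5 CPM in the same order (3.18-fold). A Bmp3 UMI was present in 10 of the 25 cells, a Cxcl14 UMI in 7 and a Dkk2 UMI in 5. The glial gene Sox10 was at 41.8 CPM (23.9 to 67.9) in the 25 cells and 1.10 in the others. Fabp7 was at 102 and 3.34 CPM in the same order. The 25 cells thus held glial RNA, and its part in the values was not tested. Aplnr was at 18.3 CPM in the 25 cells, from 7 UMIs, and 0.956 in the others. Of the 16 upper genes 11 had ratios above 1, of which 7 were past 2-fold, and the intervals of the other 4 included 1. Lrrc15 was at 47.1 CPM in the 25 cells and 92.1 in the others. The share of all genes past 2-fold was not measured at P25 either. The 25 cells could say little of the 10 lower genes: 6 had no UMI in them, and of the 10 only Gpha2 (0 UMIs, upper bound of the ratio 0.650) and Sfrp2 (ratio 0.602, 0.506 to 0.711) had an interval below 1. The GFP reporter, driven by Col1a1 at P25, was at 68.0 CPM in the 25 cells and 1501 in the others.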

How the data were processed

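The authors deposited UMI counts per gene and barcode, as 10x Chromium 3' matrices; the counts are raw and not normalised. Per the submitters' processing notes, reads were handled with Cell Ranger and Seurat on mm10; the file headers give Cell Ranger 6.0.0 for the Cxcl12-creER P6 library and 3.1.0 for the Col1a1-GFP Cxcl12-creER P25 library. The Cxcl12-GFP P6 library holds 7528 barcodes and 68891094 UMIs; 3 had under 500 genes and 8 over 15% mitochondrial UMIs. Of 940 kept barcodes with at least 2 Moxd1 UMIs, 37 were removed for Ptprc, Pecam1 or Epcam, 48 for Mmp13 and 95 for Sfrp4.

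UMIs were summed per cell set and scaled to CPM. Intervals are exact Poisson for a level, Clopper-Pearson for a share and conditional binomial for a ratio (95%), and cover counting error only. With 1 library per group no test across samples exists and no p-value is given. Ratios used a pseudocount of 1 CPM on the log2 scale. The comparison was also run on simulated counts drawn with counting error only, which cannot check for spread between cells. Clusters used 2000 variable genes, 30 components, 15 neighbours and Leiden resolution 1 (leidenalg 0.10.2, Python 3.11.15). Doublets were scored against simulated pairs at 0.8% per 1000 cells. No kept barcode sequence was shared with the Cxcl12-creER P6 library and 1 was shared with the P25 library; 0 of the 760 were shared with either.

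Genes were named by a rule: the 16 highest and 10 lowest ratios against all other mesenchymal cells among genes whose higher set had 50 CPM and 50 UMIs or more, 8 and 8 against each other set, the marker genes, and up to 4 per list of 39 lists. Sex-specific, haemoglobin, histone, ribosomal, mitochondrial and clone-named genes were left out. Hba-a1, Lgr5, Tagln, Scx, Csf1r, Cd52, Lyz2, Gli1, Ptch1, Igf1r and some further list members were named after their values were seen. The members and lists were chosen with earlier results of these data known. Genes with near-identical copies (Bglap and Bglap2, the haemoglobins) may share reads.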

Additional observations from a re-analysis of the deposited data

Results flagged for a closer look

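The Cxcl12-GFP P6 matrix lists reporter features that the labelled genotype does not carry. The tdT-WPRE feature had 184 UMIs in Moxd1-positive cells, or 22.3 CPM (19.2 to 25.7), against 23.3 CPM in all other mesenchymal cells and 53.5 CPM in endothelial cells. The iCreER feature had 19 UMIs in Moxd1-positive cells, or 2.30 CPM, against 15.7 CPM in all other mesenchymal cells. They were singled out because they are signals in features outside the measurements compared above and exceed the 3 counts that a count of 0 allows. The mCherry, Cre and CreER features had 0 UMIs in Moxd1-positive cells, which allows up to 3 counts. The origin of these UMIs was not tested.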

How the results depend on the processing

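No paired analysis was possible because each group is 1 library and no sample numbers are shared. Bmp3, Cxcl14 and Dkk2 were higher in Moxd1-positive cells than in all 4 sets under every alternative, but fell under 2-fold against Tnmd-gated cells when gate and counts used 3000 UMIs per cell. Of named genes called against all other mesenchymal, Sfrp4-gated, Tnmd-gated and Mmp13-gated cells (105, 69, 39 and 71), 23, 23, 19 and 15 came under 2-fold in at least 1 of 16 alternatives. The share of Moxd1-positive cells was 15.7% with 1 Moxd1 UMI as minimum, 8.34% with 3, 10.9% with Sfrp4 under 2 UMIs and 5.41% on 3000 UMIs.

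With genes from 5 CPM, 611 were lower than in all other mesenchymal cells; higher and lower counts were 288 and 314 against Sfrp4-gated, 92 and 133 against Tnmd-gated, and 328 and 294 against Mmp13-gated cells. With genes from 50 CPM they were 186 and 174 against all other mesenchymal, 85 and 77 against Sfrp4-gated, 26 and 25 against Tnmd-gated, and 108 and 80 against Mmp13-gated cells. With 1 Moxd1 UMI as minimum, 170 were lower than in all other mesenchymal cells, 104 higher and 68 lower against Sfrp4-gated cells, and 21 lower against Tnmd-gated cells. Genes lower than in Tnmd-gated cells numbered 76 with means of per-cell CPM, 88 without marked doublets, 79 on 3000 UMIs and 80 in cells of 5000 to 20000 UMIs. On 3000 UMIs, 479 were higher and 372 lower against Sfrp4-gated cells, and 350 and 296 against Mmp13-gated cells. With only the members of the largest cluster, chosen after seeing the data, 239 were lower than in Sfrp4-gated cells, 84 higher and 239 lower against Tnmd-gated cells, and 310 lower than in Mmp13-gated cells.

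Some log2 ratios changed sign. The mural list's median against Sfrp4-gated cells was -0.32 with genes from 5 CPM, against 1.33 in the main setting. On 3000 UMIs, Cxcl5 was 0.089 against Sfrp4-gated cells and Amelx 1.12 against Mmp13-gated cells. With only the members of the largest cluster, Cdk1 was -1.78, Hist1h2ap -3.68 and Birc5 -2.23 against Sfrp4-gated cells, since the cycling cluster is left out.

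In the other libraries, 1 Moxd1 UMI as minimum gave shares of 6.37% in Cxcl12-creER P6 and 1.26% at P25, and 1000 genes as minimum gave 6.47% in Cxcl12-creER P6. The lower genes past 2-fold were then 4 in Cxcl12-creER P6 and 1 at P25 with 1 Moxd1 UMI, and 3 and 0 with genes from 50 CPM, where 3 upper genes at P25 passed. Shares over all genes were not measured in these libraries. Thinned to 1000 UMIs, Bmp3 was found in 67.0% of Moxd1-positive and 6.73% of other mesenchymal cells, Cxcl14 in 56.7% and 8.11%, and Dkk2 in 15.5% and 1.35%; unthinned, the shares were 95.8% and 26.7%, 93.7% and 28.8%, and 67.4% and 9.45%. Except where a setting tests fewer genes or leaves out cells, the cause was not tested.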
